A study of Homo sapiens with 2 samples.

Results

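NRG1 and PHACTR1, 2 of the 1741 gene symbols in the rows used here of the study's lists of up regulated and down regulated mRNAs, were followed in SK-NEP-1 cells. All 6 probes that these rows name for them were read, 4 for NRG1 and 2 for PHACTR1, among 58921 probes on the array. The genes were chosen because each gene has probes in both lists, so that the opposite directions are what selected them and are described here without a test. SK-NEP-1 is an established line that the labels call a Wilms tumor line, and LBH589 (panobinostat) inhibits histone deacetylases, the enzymes that take acetyl groups off histones. Cells treated with 100 nM LBH589 for 24 h were compared with cells given the same volume of DMSO, the solvent of the drug. RNA of each condition was read in a single colour (Cy3) on 1 Arraystar Human LncRNA array, so each value below comes from 1 spot on 1 array and has no replicate. In such bulk RNA a change in the cells present and a change in the RNA of each cell cannot be told apart. Of 10 kidney progenitor or Wilms tumor markers only MEOX1 was named among the listed probes, with a DMSO signal of 11.6 that was not well above background. Of 10 Ewing sarcoma markers CCND1, KDSR and NKX2-2 were named, with DMSO signals of 3993, 6873 and 290 that were well above background. These markers moved with the condition too, but only listed probes were read and the lists hold only probes that moved. MEOX1 was at least 2.31-fold higher in LBH589, at a signal of 28.3 that 27 of 600 negative control spots reached. CCND1 was 5.02-fold lower, KDSR 9.05-fold lower and NKX2-2 at least 11.5-fold lower. The part of these markers in the NRG1 and PHACTR1 results was not tested. The other markers were not analysed here, so no cell type is read from those named. CCND1 is also among the cell cycle genes that the paper names.

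NRG1 encodes neuregulin 1, a growth factor of the EGF family. Its EGF-like domain, which is made in alpha and beta forms by alternative splicing, binds the receptor tyrosine kinases ErbB3 and ErbB4, and neuregulin signaling is best known from the heart, Schwann cells and the nervous system. PHACTR1 encodes a phosphatase and actin regulator that binds protein phosphatase 1 and, through its RPEL motifs, monomeric actin, and is known for its expression in brain and its role in actin organization. Both genes use several start sites and splice forms, and a probe of this array is meant to read the transcripts that hold its own stretch of sequence.

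The 2 PHACTR1 probes are listed for NM_030948 and NM_001242648, both on chromosome 6 from 12717037 to 13288075 (hg19, plus strand). The list also gives NM_001242648 as a transcript that the NM_030948 probe detects, whereas the NM_001242648 probe is given no other transcript. The probes share no run of more than 5 bases. Their first 30 of 60 bases are shown because these probes carry the opposite directions, with capitals for the 10 bases that come from an upstream exon.
PHACTR1 probe of NM_030948: acttaacaaggtttcaccgaccttaacagt
PHACTR1 probe of NM_001242648: CGTTGCTAAGgtgttccagtgttttctctc
The NM_001242648 probe could be placed with the RefSeq windows of 300 bases around 7 annotated PHACTR1 starts (GRCh38.p14). The search accepted only splits with a GT directly after the first part and an AG directly before the second, the pattern of an exon junction. The GT and AG are thus no evidence of their own. In the only split found, the first 10 bases matched the genome up to position 12717553 of chromosome 6. The other 50 bases matched from position 12718699, across 1145 bases, and the split is read here as an exon junction. The genome at the end of the upstream exon and at the start of the next one is shown with the bases of the probe in capitals.
PHACTR1 chr6:12717534-12717563, plus strand: cgtcaccttcCGTTGCTAAGgtaacgtgct
PHACTR1 chr6:12718689-12718718, plus strand: ctctttatagGTGTTCCAGTGTTTTCTCTC
The 50 bases were found in 1 of 35116 windows of all genes and the 10 bases, too short to be particular, in 24 of them on either strand. Of the 7 annotated starts only the one at 12716767 lies before the upstream exon ends, 786 bases from the junction. The starts at 12717607 and 12718293 lie between the exons, the one at 12718699 is the first base of the next exon, and 3 more lie farther downstream, up to 13013554. Of these 7 starts, then, only the first can give an RNA with this junction. An RNA from the start at 12718699 would still begin with the other 50 of the probe's 60 bases. Whether the probe also reads such RNAs was not tested, so its signal is not assigned to the first start. The 60 bases before that start held a TATAAA motif, shown in capitals, from 30 bases before it. TATAAA was found on either strand of the same 60 bases in 3.75% of all windows and in 2 of the 7 of PHACTR1, which is a match of letters and no evidence of use.
PHACTR1 chr6:12716707-12716766, plus strand: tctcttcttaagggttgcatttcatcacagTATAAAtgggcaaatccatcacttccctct
For the NM_030948 probe the longest run in any PHACTR1 window was 9 bases, so its place in the gene was not found here.

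The 4 NRG1 probes lie within NRG1 on chromosome 8 (hg19, plus strand, transcripts between 32405728 and 32622558). They are listed for NM_001160001 (membrane-bound isoform HRG-beta1d), NM_013956 (HRG-beta1), NM_013964 (HRG-alpha) and the GENCODE transcript ENST00000523079. With the further transcripts that the lists give for each probe they cover 11 transcripts, of which 10 are among the 23 NM accessions that RefSeq holds for NRG1. No pair of them shares a run of more than 7 bases, so they are separate stretches of NRG1. The probes of NM_001160001 and NM_013956 are not independent in what they detect, since the list gives NM_001160001 as a transcript of both.

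All signals below are processed signals, from which the scanner software had subtracted the background of the array. The DMSO array was brighter, with a 75th percentile of 189 against 108 for LBH589. Each signal was therefore set against the 75th percentile of its own array on the log2 scale before the arrays were compared. The software also marks whether a spot is well above background. Where 1 array failed this, the dim side was replaced by the lowest signal well above background there, 21.3 for DMSO and 14.5 for LBH589, or by its own signal if higher, and the difference is given as at least N-fold. Errors are those the software gives for the spot and leave out any variation between cultures. A further reference came from 60 negative control probes of 10 spots each. Their 600 spots had a 95th percentile of 53.0 in DMSO and 27.4 in LBH589, and 90 and 74 of them, respectively, were marked well above background.

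In LBH589-treated cells 3 probes of NRG1 were lower, by 4.29-fold to at least 11.2-fold, and the fourth was at least 1.49-fold higher at a signal in the range of the negative control spots. The probe of NM_001160001 read 1515 ± 152 in DMSO and 118 ± 12.3 in LBH589 (error of 1 spot). It was 7.36-fold lower after scaling, a difference of -2.88 ± 0.21 on the log2 scale. Both signals lay above all 600 negative spots of their array. The HRG-alpha probe, listed for NM_013964, read 357 ± 35.9 in DMSO and 47.7 ± 5.69 in LBH589, 4.29-fold lower with a difference of -2.10 ± 0.23 on the log2 scale. In DMSO none of the negative spots reached it, and in LBH589 1 of 600 did. The HRG-beta1 probe, listed for NM_013956, read 284 ± 28.7 in DMSO and 13.2 ± 3.67 in LBH589, where it was not well above background, and was at least 11.2-fold lower. The size of these differences depended on the processing. With normexp and quantile normalization, which changed several choices at once, NM_013956 was -1.66 and NM_013964 -1.41 on the log2 scale. With the median pixel signal NM_013956 was -2.28.

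The differences of the 2 NRG1 probes measured on both arrays were not equal. The NM_001160001 probe was lower than the HRG-alpha probe by a further 0.78 ± 0.31 on the log2 scale, where the error again covers the spots alone.

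The NRG1 probe of ENST00000523079 was the only one of the gene listed as up regulated. In DMSO it read 6.52 ± 4.31, which was not well above background. In LBH589 it read 18.3 ± 3.60, which the software marked well above background at 1.26 times the lowest such signal. Among the negative spots 211 of 600 reached its DMSO signal and 60 of 600 its LBH589 signal. The difference was at least 1.49-fold higher, or 0.58 on the log2 scale with an error of 0.28 from the LBH589 spot, a bound that does not reach 2-fold and leaves the size above it unknown. By its own DMSO signal, which is not a measured level, it would be 4.87-fold. Of the negative spots 15, from 13 probes, were likewise well above background on the LBH589 array alone. Of these spots 5 differed by as much or more under the same bound. A spot that passes on the LBH589 array alone and reads under 21.3 in DMSO, as this probe does, gets a bound above 0 from the scaled limits of the arrays, so its direction is set by the filter. The lowest of the 15 was 0.31 on the log2 scale. With no scaling between the arrays the bound was -0.22, which gives no direction.

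**Figure D1:**
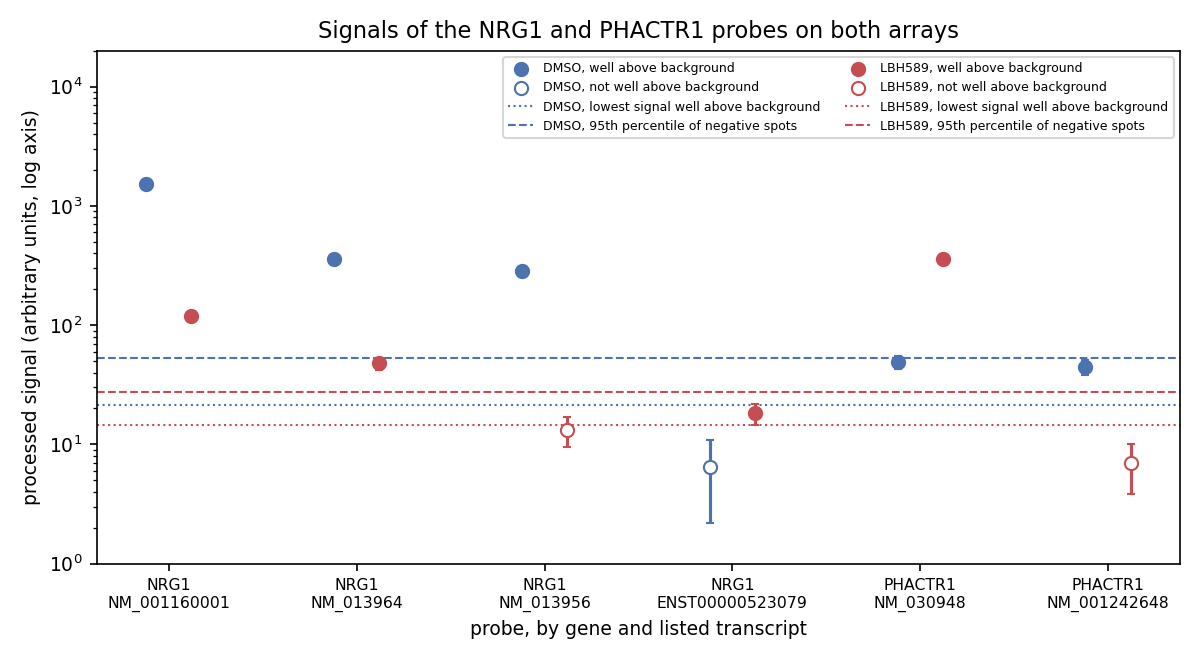
Processed signals (arbitrary units, log axis) of the 6 probes, by gene and listed transcript, on the DMSO array (blue) and the LBH589 array (red), with the error of the spot as bars. Open points are not well above background, dotted lines mark the lowest signal well above background (21.3 and 14.5) and dashed lines the 95th percentile of the negative control spots (53.0 and 27.4). The ENST00000523079 probe of NRG1 and the NM_001242648 probe of PHACTR1 stay below the dashed line of their array on both arrays.

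For PHACTR1 the probe of NM_030948 was 12.8-fold higher in LBH589-treated cells and the probe of NM_001242648 at least 1.77-fold lower. The NM_030948 probe read 49.0 ± 6.49 in DMSO and 362 ± 36.3 in LBH589, a difference of 3.68 ± 0.24 on the log2 scale. This difference was 2.31 with normexp and quantile normalization, 2.88 with no scaling and 2.94 with the median pixel signal. No negative spot reached the LBH589 signal, while 35 of 600 reached the DMSO signal. The signal thus lay within the upper range of the negative spots in DMSO and above all of them in LBH589. The NM_001242648 probe, which spans the junction shown above, read 44.7 ± 6.17 in DMSO and 6.93 ± 3.1 in LBH589, where it was not well above background. Among the negative spots 36 of 600 reached its DMSO signal and 162 of 600 its LBH589 signal. Its bound of -0.82 on the log2 scale, with an error of 0.20 from the DMSO spot, did not reach 2-fold, and its own signals would give 3.71-fold. Of the negative spots 31, from 12 probes, were well above background on the DMSO array alone, and 1 of these was as much lower or more. Spots of the same negative probe are not independent. Since the list gives NM_001242648 to both probes, the lists do not assign the opposite directions to 2 transcripts that the probes separate.

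**Figure D2:**
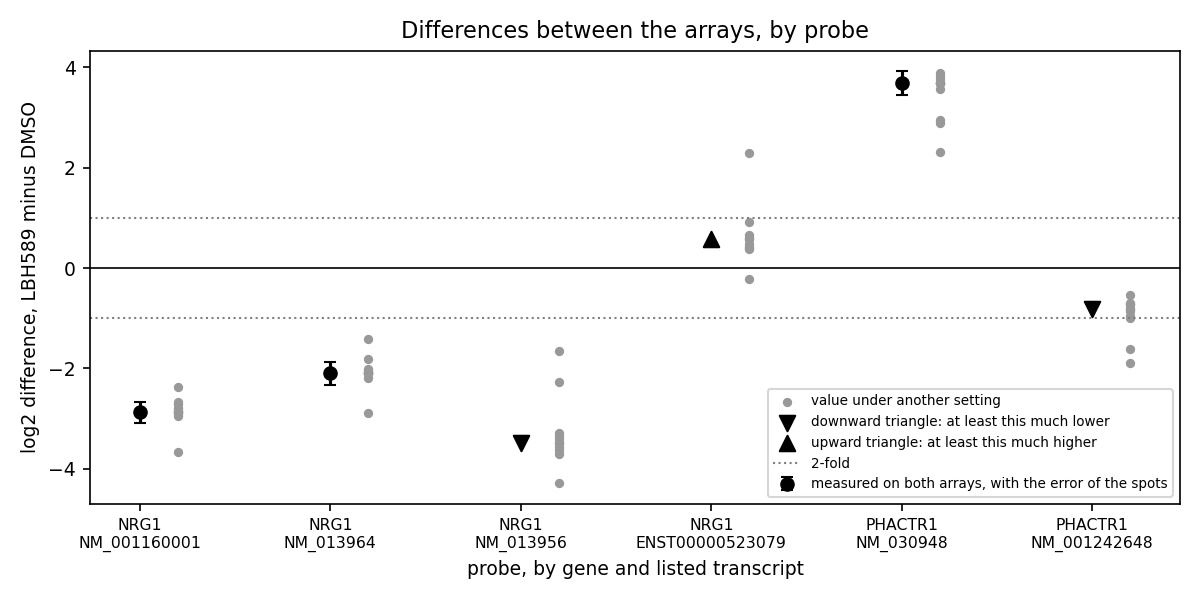
Difference of LBH589 minus DMSO on the log2 scale for the 6 probes. Black points with bars are measured differences with the error of their spots, triangles are bounds, gray points are the values under the other processing settings and dotted lines mark 2-fold. The 3 lower NRG1 probes and the higher PHACTR1 probe lie past 2-fold under each setting that gives them a value. The bounds of both probes that run against them do not reach 2-fold, though with no scaling that of NM_001242648 of PHACTR1 is -1.62.

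In all, 3 of the 6 probes were at least 2-fold lower and 1 was at least 2-fold higher. Of the 41574 probes that were well above background on at least 1 array, 10.2% were at least 2-fold lower and 12.3% at least 2-fold higher. With no scaling 16249 of the 41574 were at least 2-fold lower and 1802 at least 2-fold higher, and 4 of the 6 probes were then at least 2-fold lower. At 5-fold 2 of the 6 probes were lower and 1 was higher, against 1.65% and 2.49% of the 41574. With normexp and quantile normalization 1 was lower and 0 were higher by 5-fold, since NM_013956 of NRG1 was then -1.66 and NM_030948 of PHACTR1 2.31 on the log2 scale. The members were chosen from this contrast, so nothing is read from their share. The highest and lowest probe of a gene were 4.06 apart for NRG1 and 4.51 apart for PHACTR1 on the log2 scale, both with a bound on 1 or both sides. In the deposited table of processed values the smallest differences in the listed rows used here were 1.96 for the higher probes and -1.99 for the lower ones on the log2 scale. The members nearest to these limits were the same dim probes, at 2.04 for ENST00000523079 of NRG1 and -2.15 for NM_001242648 of PHACTR1. Probes of either gene that moved less have no row there and were not analysed here.

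**Figure D3:**
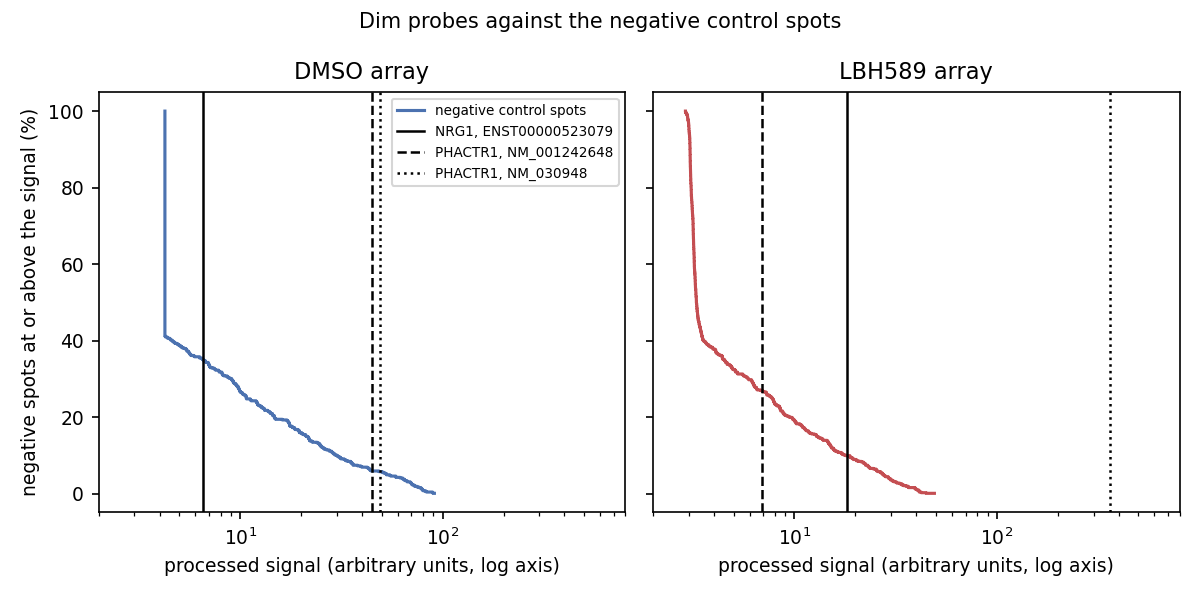
Share of the 600 negative control spots (%) at or above a given processed signal (arbitrary units, log axis) on the DMSO array (left) and the LBH589 array (right). Vertical lines are the signals of 3 dim probes, and the LBH589 signal of 18.3 for ENST00000523079 of NRG1 is reached by 60 of 600 negative spots, while none reaches the 362 of NM_030948 of PHACTR1.

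Position on the array was described by the probes around each member, and its part in the differences was not tested. Probes well above background on both arrays within 15 rows and 15 columns of a member had a median difference between -0.20 and 0.09 on the log2 scale, against -0.035 for all 34619 such probes. The NRG1 probe of ENST00000523079 had the highest of these local medians. No spot of the 6 probes was marked as saturated, non-uniform or an outlier on either array. The probes had a like GC content, 43.3% or 45.0%.

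Divergence between the probes of a gene was set beside that of other genes. Among the 1730 gene symbols of the rows used that have a probe among the 58921, 172 had at least 2 probes. NRG1 and PHACTR1 were the only ones with a probe in each list, which is what chose them, so nothing is read from this. For 106 symbols all listed probes were well above background on both arrays, and their probes differed by a median of 0.31 and by up to 2.70 on the log2 scale. The 0.78 between both such probes of NRG1 was exceeded by 22 of the 106. The 5 widest of these 106 spans were those of OAS1, CPB2, MAP7D2, FERMT3 and PAGE5. The 3 probes of OAS1, an interferon-induced synthase of oligoadenylates, were 17.1-fold to 111-fold lower. Those of CPB2, a carboxypeptidase of plasma, were up to 25.4-fold lower, those of MAP7D2 4.74-fold and 18.9-fold lower and those of FERMT3, a kindlin of blood cells, 3.79-fold and 13.8-fold lower. Those of PAGE5 were 4.18-fold and 12.8-fold higher. These probes differed in size and not in direction, which the lists in part fix, since a probe that moved less than about 4-fold has no row here. The most lowered probes of OAS1, CPB2 and FERMT3 passed the background mark in LBH589 but read under 27.4, the 95th percentile of the negative spots there. Their differences of 111-fold, 25.4-fold and 13.8-fold thus rest on LBH589 signals in the range of the negative spots. The same holds for the spans of these symbols, including the widest, 2.70.

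**Figure D4:**
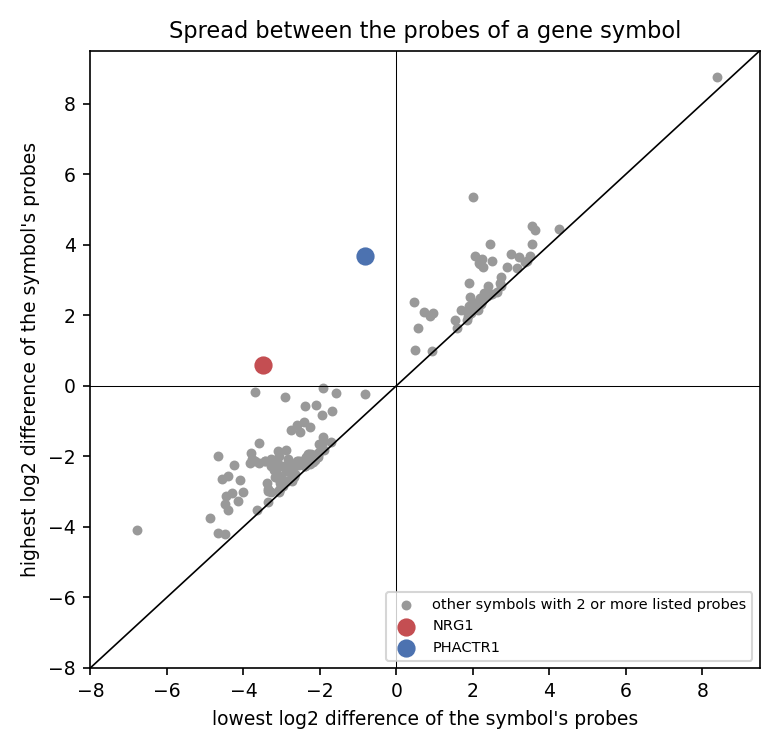
Lowest against highest difference (log2, LBH589 minus DMSO, bounds included) among the listed probes of each of 172 gene symbols, with the line of equality. NRG1 (-3.49 and 0.58) and PHACTR1 (-0.82 and 3.68) lie in the upper left quadrant, where the probes of a symbol have opposite signs, and the other symbols do not. Both were chosen for having probes in both lists, so their place there is no result. The 0.58 of NRG1 is a bound whose direction is set by the filter, and it was -0.22 with no scaling.

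Other genes of both pathways were read where the lists name them. Of 26 further ligands, receptors, sheddases and adaptors of ErbB signaling, 5 had a row, each with 1 probe. All 5 stand in the list of up regulated mRNAs, which sets their direction, and 4 of them have only a bound, so they are given as values. AREG, amphiregulin, a ligand of the EGF receptor, read 155 in DMSO and 590 in LBH589 and was 6.61-fold higher, with an error of 0.21 on the log2 scale. It was the only one well above background on both arrays. NRG2, another neuregulin, read 4.25, the signal of the dimmest negative spots, and 39.8, and was at least 3.25-fold higher, and 8 of 600 negative spots reached its LBH589 signal. EGFR, the EGF receptor, read 4.25 and 18.3 and was at least 1.49-fold higher, at a signal reached by 60 of 600 negative spots, as for ENST00000523079 of NRG1. The adaptor SHC1 was at least 2.17-fold higher and PIK3R1, a regulatory subunit of phosphoinositide 3-kinase, at least 4.46-fold higher. The LBH589 signal of SHC1, 26.6, was reached by 34 of 600 negative spots, and that of PIK3R1, 54.7, by 0. ERBB2, ERBB3, ERBB4 and the other 18 genes of the list had no row and were not analysed here, so that the receptors of neuregulin 1 have no value here.

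Of 14 further genes on the side of PHACTR1, which were its paralogs, the catalytic subunits of protein phosphatase 1, actins and the actin-regulated transcription factors, only ACTA2 had a row. ACTA2, smooth muscle actin, read 903 in DMSO and 37.4 in LBH589 and was 13.9-fold lower, with an error of 0.24 on the log2 scale. In LBH589 10 of 600 negative spots reached its signal. PHACTR2, PHACTR3 and PHACTR4 had no row and were not analysed here.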

How the data were processed

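The authors deposited 1 scanner file per array, made with Agilent's Feature Extraction software (version 11.0.1.1 in the file headers and 10.7.3.1 in the submitters' processing notes), in which each spot has a processed signal as an intensity, its error and quality marks, deposited as a score of 0 or 1. The authors also deposited a table of log2 values, normalized between the arrays by a method not given in the sources used here. Control spots, the negative probes and marked spots (26 and 37) were left out, spots of a probe were averaged on the log2 scale, and the 75th percentile over 58921 probes was subtracted. Precision is limited by the number of arrays, and no test was made.

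Gene names, transcripts, positions and probe sequences come from the study's lists, of which the first 1002 and 952 rows of mRNAs were used, and starts from RefSeq (GRCh38.p14). Members and lists were chosen with earlier results of these data known. The text names all probes of both genes in the rows used, all list genes with a row and the 5 symbols with the widest span. Calculations used Python 3.11.15, pandas 2.3.3 and limma 3.58.1. The differences were tested on simulated data, with changes put only into probes well above background in DMSO. That test set a limit only for probes measured on both arrays, so the bounds of dim probes and normexp were not tested by it. Alternatives changed scaling, background correction, filter, bound, source and spot summary. Normexp used the median signal, since the files analysed have no mean signal. No column of other samples was used.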

Additional observations from a re-analysis of the deposited data

How the results depend on the processing

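The NRG1 probes of NM_001160001, NM_013956 and NM_013964 and the PHACTR1 probe of NM_030948 kept their direction and stayed past 2-fold under each alternative that gives them a value, which for NM_013956 leaves out the filter on both arrays. All differences here are LBH589 minus DMSO on the log2 scale, and the cause of a change was not tested unless stated. With no scaling, which shifted the median of all probes measured on both arrays from -0.035 to -0.83, they were -3.68, -4.29, -2.90 and 2.88, the NM_001242648 probe of PHACTR1 was -1.62 and the bound of ENST00000523079 of NRG1 was -0.22, which gives no direction. There were then 1802 probes at least 2-fold higher, 16249 at least 2-fold lower, 477 at least 5-fold higher and 1963 at least 5-fold lower, against 5094, 4252, 1035 and 684. Normexp with an offset of 50 and quantile normalization, which draws dim signals together by construction, gave -2.38 for NM_001160001, -1.66 for NM_013956, -1.41 for NM_013964, 2.31 for NM_030948 and -0.53 for NM_001242648, with counts of 2498, 2247, 408 and 248, which left NM_013956 and NM_030948 under 5-fold. With the median pixel signal minus the median background the values were 0.91 for ENST00000523079, -2.28 for NM_013956, -1.82 for NM_013964 and 2.94 for NM_030948, with NM_013956 under 5-fold, and 647 probes were at least 5-fold higher. Without bounds, taking each dim signal as it stands, ENST00000523079 was 2.28 and NM_001242648 was -1.89, and 1687 probes were at least 5-fold higher. NM_013956 was -3.71 in the deposited table and -3.29 after local centring, an alternative chosen after seeing the data, as was the signal before detrending, which moved no value by more than its spot error. The opposite directions within a gene thus reached 2-fold on both sides for both genes only with the dim probes' own signals, as the deposited table holds them too, and for PHACTR1 also with no scaling. Among probes that passed the background mark on both arrays 3 of the 6 members had a value, NM_001160001 and NM_013964 of NRG1 and NM_030948 of PHACTR1, so that opposite directions could not be compared. The median span between probes of a gene, 0.31, lay between 0.27 and 0.31 under each alternative other than local centring, with which it was not computed. No paired analysis was possible because each group has 1 array.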
